A study of Mus musculus with 12 samples.

Results

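Chemokine ligands are small secreted proteins that steer leukocytes by binding receptors on their surface. In the thymus medulla, epithelial chemokines draw in maturing thymocytes and dendritic cells, which then meet the self antigens that the epithelium displays. The ligand genes were taken by symbol (Ccl, Cxcl, Xcl1 or Cx3cl1) among probe sets with 1 gene symbol, and the brightest probe set of each gene was used. This gave 34 of the 22154 genes measured: 19 CC ligands, 13 CXC ligands, the XC ligand Xcl1 and the CX3C ligand Cx3cl1. A further 7 ligand symbols, among them Ccl19 and Ccl21a, which guide Ccr7-bearing thymocytes, stand only on probe sets that carry several symbols, and they were not analysed here.

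The arrays held RNA of medullary thymic epithelial cells (mTECs) from C57BL/6 mice aged 4 weeks. Cells were sorted as live, CD45-negative, Epcam-positive, UEA-positive and Ly51-low, and split by MHC class II into a high fraction (mTEChi) and a low fraction (mTEClo). The groups were Aire-/- and Aire+/+ cells, which differ in the transcriptional regulator Aire, and Brg1-/- and Brg1+/+ cells, which differ in Brg1, the ATPase of a SWI/SNF chromatin remodeller encoded by Smarca4. With 2 arrays for each mTEChi group and 1 for each mTEClo group, the 8 groups made 12 arrays. The labels give neither the Cre driver of the Brg1 deletion nor the number of animals behind an array, so a p-value reflects array-to-array spread that may be technical. Neither the Aire nor the Smarca4 probe set checks the genotype labels, since where they lie relative to the deleted parts is not known here.

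Values are log2 array intensities, on which a difference of 1 is a 2-fold change, and levels of different genes are not compared because each has its own probes. Tests are moderated limma contrasts from 1 fit over the 12 arrays with p adjusted by Benjamini-Hochberg over all 22154 genes. A gene passed at an adjusted p under 0.05. The single mTEClo arrays borrow their spread from the mTEChi groups. In bulk RNA, fewer cells of one kind and less RNA per cell cannot be told apart.

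Array medians lay between 5.07 and 5.32. The summed mTEC marker list lay between 14.09 and 14.74 on the 8 mTEChi arrays and between 13.86 and 14.15 on the 4 mTEClo arrays. Its median lay between 8.61 and 8.97 in mTEChi and between 7.57 and 7.70 in mTEClo. The list holds H2-Aa and H2-Ab1, genes of the MHC class II by which the fractions were split. Thymocyte markers were highest on Brg1-/- mTEChi array 2 (summed level 11.24, the other 7 mTEChi arrays at or below 10.42). As a mark for dim signal, the 95th percentile of 1392 olfactory and vomeronasal receptor genes was taken on each array. Of the ligands, 25 lay above the mark on all 12 arrays, 8 on some of them, and Ccl26, an eosinophil attractant in humans, on 0. The 8 were Ccl1, Ccl12, Ccl22, Ccl27a, Ccl6, Cxcl12, Cxcl15 and Cxcl5.

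**Figure D1:**
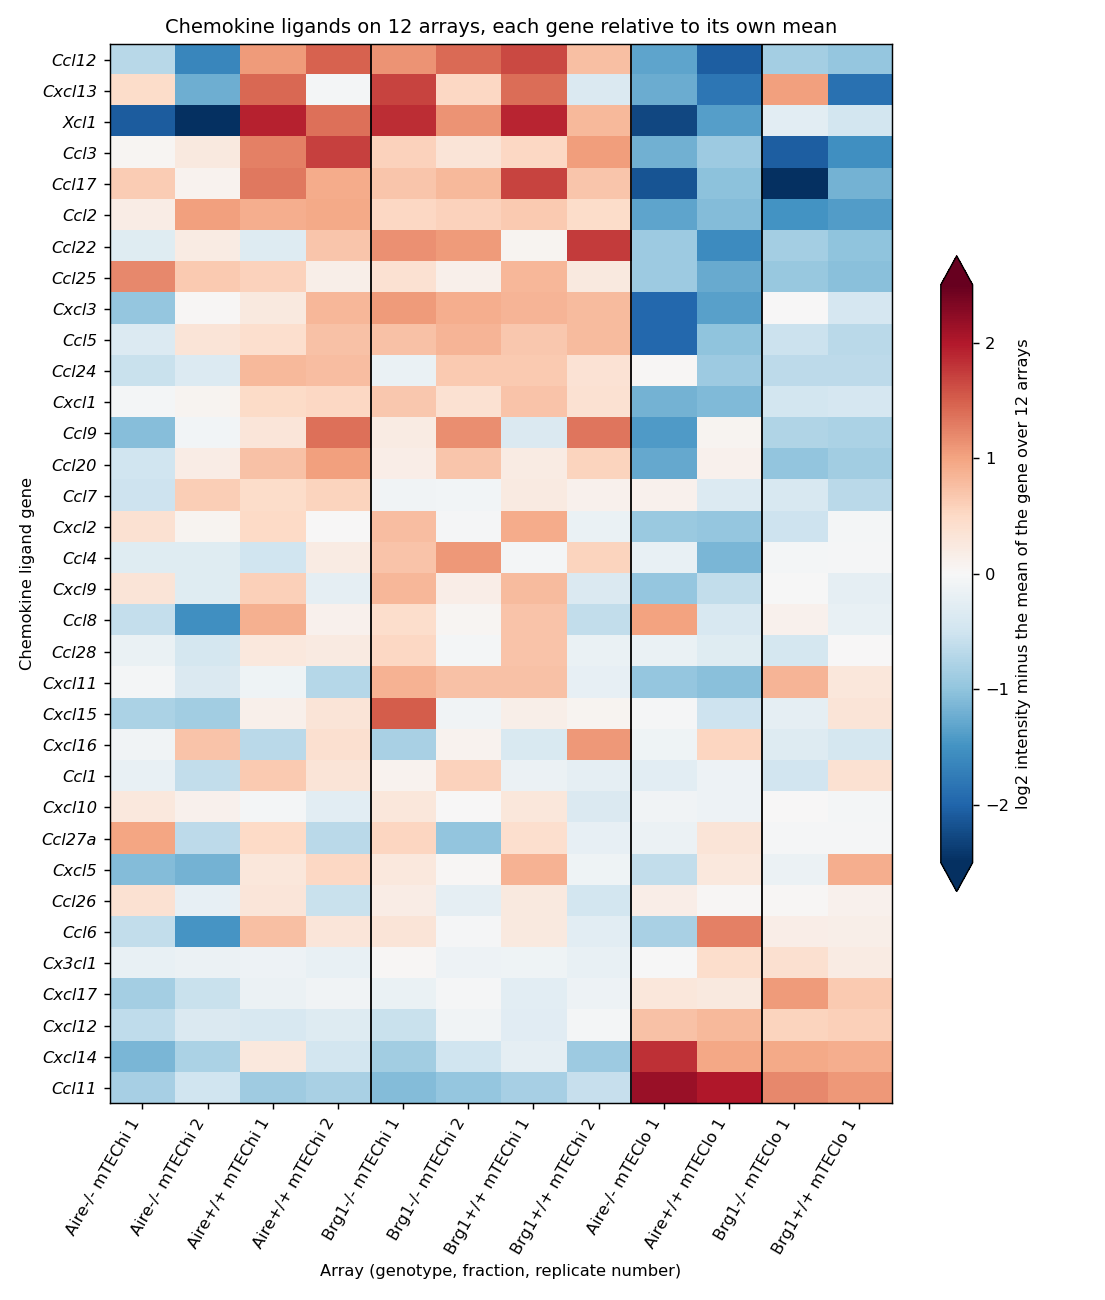
Levels of the 34 chemokine ligands (rows) on the 12 arrays (columns, grouped by fraction and line), as log2 intensity minus the mean of the gene over the 12 arrays. Xcl1 is low on both Aire-/- mTEChi arrays, at 6.11 and 5.66, and Ccl11 is high on the 4 mTEClo arrays, between 9.58 and 10.64.

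Most ligand genes lie beside one another in the mouse genome. By gene order in the RefSeq table of assembly GRCm38.p6, 23 of the 33 ligands that matched as coding genes fell into 6 clusters with at most 3 other coding genes between neighbours. The largest ran Ccl2, Ccl7, Ccl11, Ccl12, Ccl8 and Ccl1, the next Ccl5, Ccl9, Ccl6, Ccl3 and Ccl4, and a CXC cluster ran Cxcl5, Cxcl3, Cxcl15, Cxcl1 and Cxcl2. RefSeq lists Cxcl11 as a transcribed pseudogene in this C57BL/6 reference, so its probe set was read as RNA only.

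Promoters of the ligands were read next, because the neighbours Cxcl1, Cxcl2 and Cxcl3, which attract neutrophils through Cxcr2, and Ccl20, which attracts Ccr6-bearing cells, are known targets of NF-kB, a pathway that drives mTEC maturation. RefSeq promoters (GRCm38.p6) were at hand for 23 of the 34 ligands. The 250 bases before the start held the NF-kB consensus, on either strand, in 7 of the 23: Ccl1, Ccl20, Ccl9, Cxcl1, Cxcl10, Cxcl2 and Cxcl3. The consensus stood in 5.67% of the 27025 genes with a promoter in that table. The stretches below are shown because Cxcl1, Cxcl2 and Cxcl3 carry the same 10 letters in capitals while Ccl20 and Ccl9 carry a match that reads on the opposite strand. The capitals mark the match, and each stretch reads 5′ to 3′ along its gene.
Cxcl1 (chr5:90891154-90891203, + strand): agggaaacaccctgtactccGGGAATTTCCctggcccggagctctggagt
Cxcl2 (chr5:90903782-90903831, + strand): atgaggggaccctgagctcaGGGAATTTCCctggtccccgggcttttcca
Cxcl3 (chr5:90786008-90786057, + strand): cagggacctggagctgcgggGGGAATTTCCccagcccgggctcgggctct
Ccl20 (chr1:83116666-83116715, + strand): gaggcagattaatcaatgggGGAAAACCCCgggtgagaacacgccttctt
Ccl9 (chr11:83578642-83578691, - strand): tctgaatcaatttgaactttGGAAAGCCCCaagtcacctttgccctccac

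The match began 71 bases before the start in Cxcl1, 97 in Cxcl2 and 73 in Cxcl3, on the strand of the gene. The letters TATAAA stood in 9 of the 23 ligands and in 14.3% of the 27025 genes, counted on both strands. In Cxcl3 and Ccl9 the TATAAA and NF-kB matches do not overlap, whereas Cxcl10 holds a pair of overlapping NF-kB matches. A match describes the letters and does not show that a factor binds there.

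Xcl1, probe set 17229187, is the ligand of Xcr1, a receptor of cross-presenting dendritic cells, and in mouse mTECs it is known as an Aire-dependent chemokine. Its whole upstream stretch is shown because it was the 1 ligand that passed the Aire test, and neither motif above was matched in it.
Xcl1 (chr1:164935523-164935772, - strand): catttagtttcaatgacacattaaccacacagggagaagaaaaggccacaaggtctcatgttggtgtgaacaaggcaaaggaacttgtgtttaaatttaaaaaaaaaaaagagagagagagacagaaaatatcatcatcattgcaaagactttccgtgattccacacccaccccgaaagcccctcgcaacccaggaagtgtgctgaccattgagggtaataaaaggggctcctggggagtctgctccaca

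Xcl1 fell without Aire. It read 6.11 and 5.66 in Aire-/- mTEChi, against 10.10 and 9.55 in Aire+/+ mTEChi. The groups were far apart, and the Aire-/- mTEChi values lay near the 5.91 of the Aire-/- mTEClo array. The difference was -3.94 (SE 0.442, adjusted p = 0.0106), a 15.3-fold lower level, and it ranked 64th among all genes by size of fall. Brg1-/- mTEChi held Xcl1 at 10.03 and 9.31, against 10.08 and 8.99 in Brg1+/+ mTEChi. These overlapped, and the difference of 0.14 (95% confidence interval -0.90 to 1.17) did not pass. The Brg1 effect minus the Aire effect was 4.08 for Xcl1 (SE 0.625, adjusted p = 0.0953), which did not pass either, although it passed with the array number as a block (0.0019) and after median centring of the arrays (0.0466). Leaving out 1 array kept the Aire difference between -4.22 and -3.67 but ended the call without Aire+/+ array 1 (adjusted p = 0.0929), Aire-/- array 1 (0.0614) or Aire-/- array 2 (0.0937). Xcr1, its receptor, read between 4.12 and 4.77 on all 12 arrays, under the mark for dim signal.

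Xcl1 was the 1 of 34 ligands called lower in Aire-/- mTEChi, and 0 were called higher, beside 0.772% and 0.0226% of all genes. With the array number as a block 7 were called lower: Xcl1, Ccl12, Ccl3, Ccl6, Ccl8, Ccl9 and Cxcl5. Over all genes the block also raised the number called lower, from 171 to 465. Unless the block is named, a ligand that passed did so in the fit without it. At an unadjusted p under 0.05 stood 12 ligands (5.46% of all genes), all of them lower in Aire-/- mTEChi. The median difference of the 34 was -0.57, beside 0.06 over all genes, and 27 were below 0 (41.0% of all genes). Without overlap between arrays, 18 were lower in Aire-/- mTEChi (11.6% of all genes) and 2 higher (15.9%). At least 2-fold lower stood 12 of the 34 (3.44% of all genes). These genes share arrays and clusters and are not replicates of one another. Beside these counts, the summed fibroblast, pericyte and endothelial list stood at 11.04 and 11.11 in Aire-/- mTEChi, against 10.47 and 10.61 in Aire+/+ mTEChi, with 0 of 13 passed. A summed level follows the brightest genes of its list. Of that list Dcn was the brightest, at 10.23 and 10.24 in Aire-/- mTEChi, against 9.49 and 9.22 in Aire+/+ mTEChi. Pdgfra went the other way, at 3.85 and 3.98 against 4.14 and 4.47. The list median was 5.70 to 5.93 in Aire-/- mTEChi and 5.52 to 5.58 in Aire+/+ mTEChi. The summed list of dendritic cell, macrophage and B cell markers overlapped, at 10.48 to 11.15 in Aire-/- mTEChi and 10.55 to 10.97 in Aire+/+ mTEChi. The part of such cells in the ligand differences was not tested.

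Monocyte and eosinophil attractants of the CC class were 11 of the 34 ligands. Of these 11, 0 passed and 5 stood at an unadjusted p under 0.05, beside 5.46% of all genes. Their median difference was -1.25, beside 0.06 over all genes. Ccl12, probe set 17254059, is a mouse ligand of Ccr2, the monocyte receptor. It read 6.07 and 5.14 in Aire-/- mTEChi, against 7.84 and 8.25 in Aire+/+ mTEChi. The arrays did not overlap, and the difference of -2.44 (SE 0.418, adjusted p = 0.0585) narrowly missed the threshold. It was -1.98 without Aire-/- array 2 and -2.91 without Aire-/- array 1. With each array centred on its median Ccl12 passed (adjusted p = 0.0423). Its promoter holds TATAAA close to the start, shown in capitals.
Ccl12 (chr11:82101765-82101844, + strand): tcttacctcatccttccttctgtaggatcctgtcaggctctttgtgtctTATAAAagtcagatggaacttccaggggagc

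Ccl3, a ligand of Ccr1, read 7.72 and 7.93 in Aire-/- mTEChi, against 8.93 and 9.38 in Aire+/+ mTEChi (difference -1.33, SE 0.294, adjusted p = 0.155). Ccl8, which in mice acts through Ccr8, read 9.15 and 8.22 in Aire-/- mTEChi, against 10.63 and 9.86 in Aire+/+ mTEChi (difference -1.56). Ccl24, an eosinophil attractant, read 6.26 and 6.46 in Aire-/- mTEChi, against 7.63 and 7.58 in Aire+/+ mTEChi (difference -1.25, adjusted p = 0.256). In each of these 3 the Aire-/- arrays were the lower without overlap, and none passed. Ccl2, the main Ccr2 ligand, overlapped: 9.95 and 10.79 in Aire-/- mTEChi, against 10.66 and 10.70 in Aire+/+ mTEChi. Ccl2 and Ccl12 lie in 1 cluster and share a receptor, yet their differences were -0.31 (95% confidence interval -1.04 to 0.42) and -2.44. Ccl11, between them in the cluster, differed by 0.19 (95% confidence interval -0.39 to 0.76). Also on the list of monocyte and eosinophil attractants, Ccl4 differed by -0.16, Ccl7 by -0.455 and Ccl26 by 0.21.

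Ccl6 and Ccl9, related mouse CC ligands of Ccr1, stand in the same cluster as Ccl3. Ccl6 read 5.58 and 4.73 in Aire-/- mTEChi, against 6.96 and 6.50 in Aire+/+ mTEChi (difference -1.58, adjusted p = 0.192). Ccl9 read 7.01 and 8.01 in Aire-/- mTEChi, against 8.38 and 9.45 in Aire+/+ mTEChi (difference -1.41, adjusted p = 1). Neither overlapped and neither passed. Ccl20 read 9.06 and 9.74 in Aire-/- mTEChi, against 10.29 and 10.58 in Aire+/+ mTEChi (difference -1.04, adjusted p = 0.518). These 3 ligands are also markers of microfold-like mTECs. The other 5 markers on that list had differences of -1.795 for Gp2, -0.975 for Sox8, -0.035 for Anxa5, 0.19 for Spib and 0.20 for Tnfaip2, with 0 passed. Both Aire-/- mTEChi readings of Ccl6 lay under the mark for dim signal. The part of such cells in these differences was not tested.

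The neutrophil-attracting CXC ligands had a median of -1.01 over 5 genes, all below 0 (41.0% of all genes), with 0 passed. Cxcl5 read 5.37 and 5.26 in Aire-/- mTEChi, against 6.73 and 6.96 in Aire+/+ mTEChi (difference -1.53, SE 0.345, adjusted p = 0.165). Cxcl3 read 9.43 and 10.43 in Aire-/- mTEChi, against 10.65 and 11.22 in Aire+/+ mTEChi (difference -1.01, adjusted p = 0.709). Its cluster neighbour Cxcl2 overlapped, at 9.21 and 8.91 in Aire-/- mTEChi, against 9.33 and 8.85 in Aire+/+ mTEChi. Cxcl15, an epithelial CXC ligand of the mouse lung, lay above the mark for dim signal on 4 of the 12 arrays and on neither Aire-/- mTEChi array. The platelet ligands Pf4 and Ppbp, CXC chemokines whose symbols fall outside the rule, differed by -2.12 (adjusted p = 0.125) and -2.00 (adjusted p = 0.112), also without passing.

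The ligands known for guiding thymocytes and dendritic cells differed less than Xcl1. Ccl17 and Ccl22, both ligands of Ccr4, differed by -0.77 and -0.24. Ccl17 read 9.40 and 8.87 in Aire-/- mTEChi, against 10.10 and 9.71 in Aire+/+ mTEChi, without overlap. Ccl22 read 5.74 and 6.23 in Aire-/- mTEChi, against 5.72 and 6.73 in Aire+/+ mTEChi, with overlap. Ccl5, a T cell and monocyte attractant, read 11.99 and 12.66 in Aire-/- mTEChi, against 12.76 and 13.08 in Aire+/+ mTEChi (difference -0.60). Ccl25, the Ccr9 ligand, was the higher in Aire-/- mTEChi at 9.08 and 8.54, against 8.46 and 8.03 in Aire+/+ mTEChi (difference 0.57, 95% confidence interval -0.20 to 1.33). It was 1 of the 2 ligands that stood higher without overlap, the other being the Cxcr3 ligand Cxcl10 (difference 0.34). The interferon-inducible set Cxcl9, Cxcl10 and Cxcl11 had a median of 0.21 with 0 passed.

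**Figure D2:**
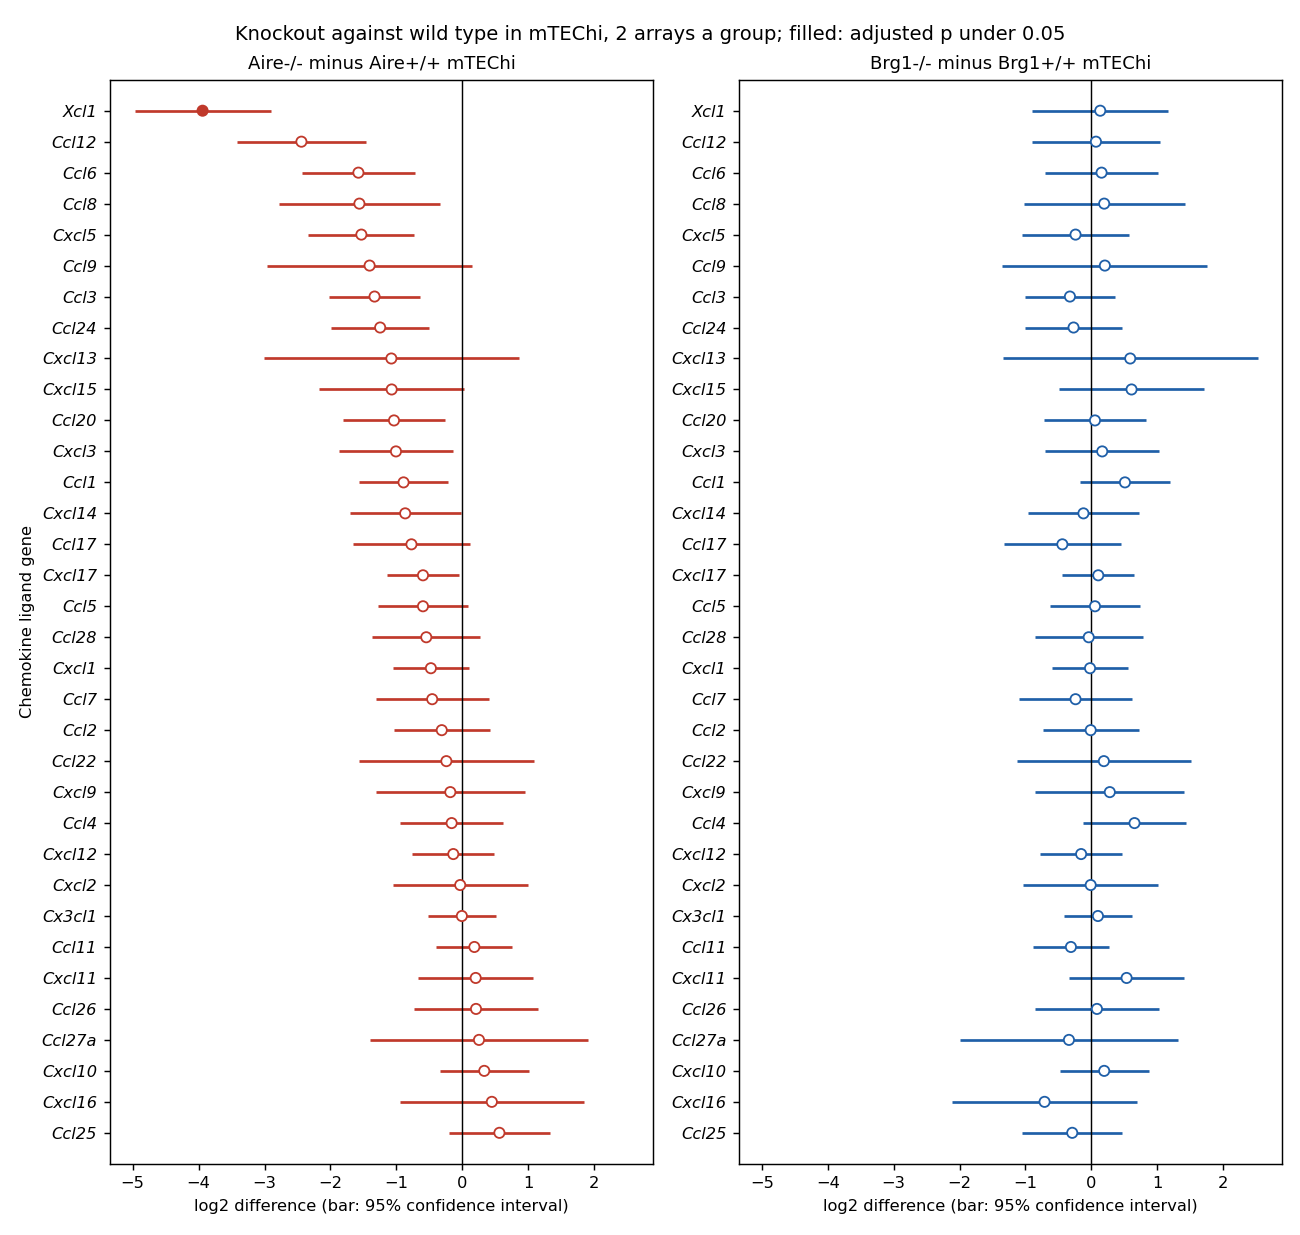
Log2 difference of each ligand between knockout and wild-type mTEChi (2 arrays a group) with its 95% confidence interval, for Aire-/- minus Aire+/+ on the left and Brg1-/- minus Brg1+/+ on the right, both in the order of the Aire differences. Filled points passed: Xcl1 at -3.94 on the left and 0 on the right.

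Loss of Brg1 left no called difference among the ligands in mTEChi. Of the 34, 0 passed, as 0.00% of all genes did, and 0 stood at an unadjusted p under 0.05, beside 1.36% of all genes. Differences ran between -0.71 for Cxcl16, a transmembrane ligand of Cxcr6, and 0.66 for Ccl4, a monocyte and T cell attractant. Cxcl16 overlapped, at 7.18 and 8.07 in Brg1-/- mTEChi, against 7.61 and 9.06 in Brg1+/+ mTEChi. Ccl4 did not, at 8.23 and 8.59 in Brg1-/- mTEChi, against 7.45 and 8.06 in Brg1+/+ mTEChi. Without overlap 3 ligands were higher in Brg1-/- mTEChi and 2 lower, beside 9.77% and 9.62% of all genes. The median was 0.06, beside 0.00 over all genes. The intervals stay wide: that of Ccl12 ran from -0.91 to 1.05 and that of Ccl17 from -1.33 to 0.45.

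The same was asked of the difference between both knockout effects in mTEChi. Of 34 ligands 0 passed, beside 0.135% of all genes called, and 8 stood at an unadjusted p under 0.05, beside 3.68%. After Xcl1 the smallest p belonged to Ccl12, with a Brg1 effect minus Aire effect of 2.51 (SE 0.592, adjusted p = 0.403). So a difference between the lines was not shown for any ligand in this fit, whereas Xcl1 passed with the block and with median centring.

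**Figure D3:**
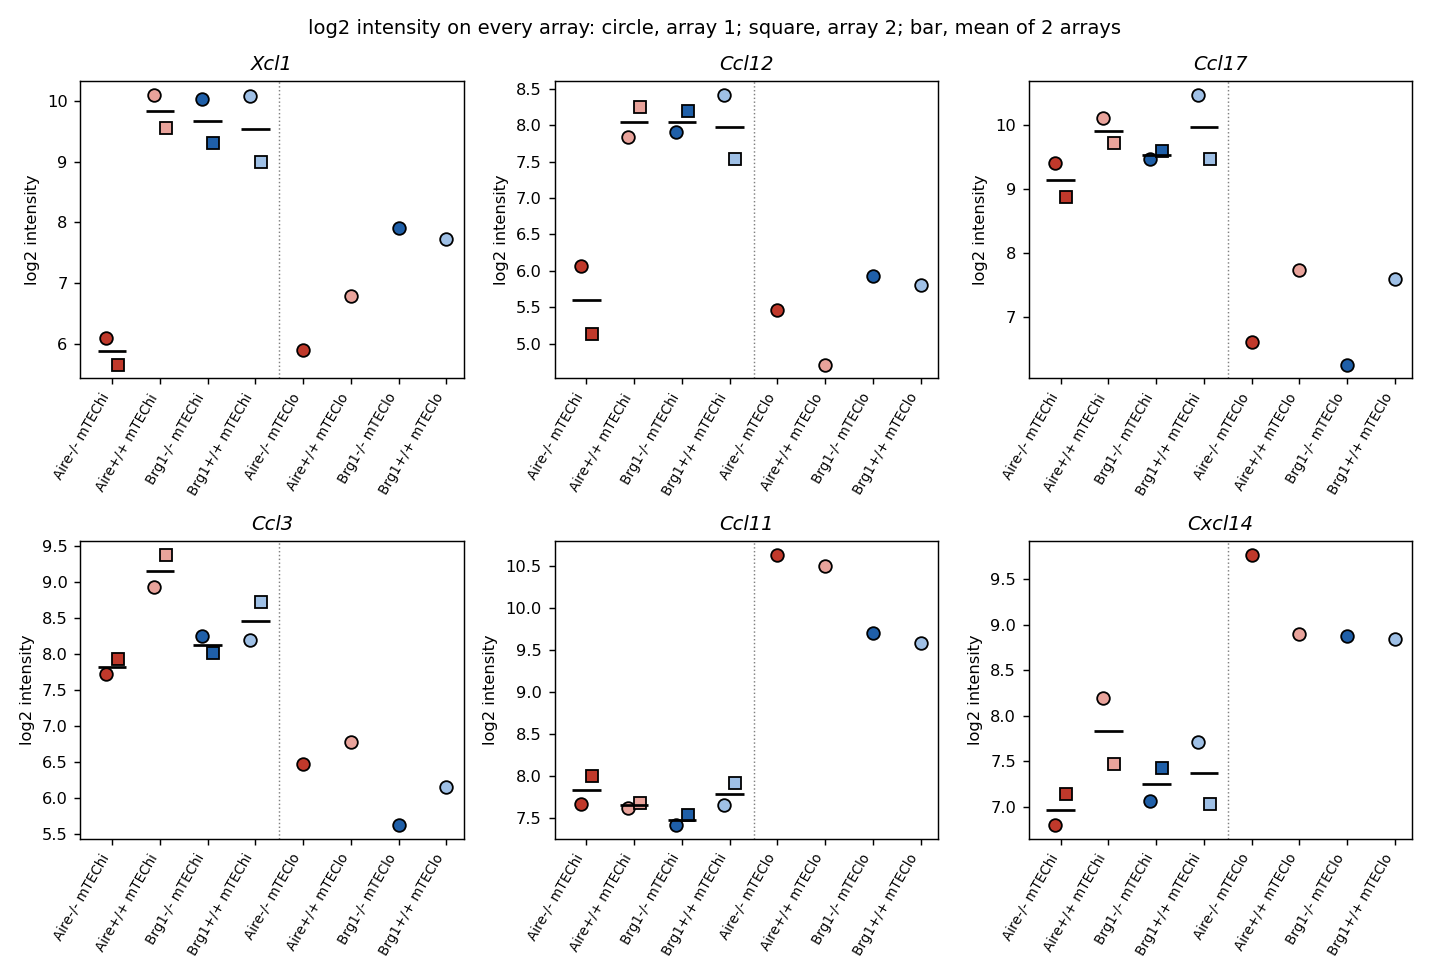
Log2 intensity on every array for 6 ligands, with circles for array 1, squares for array 2 and a bar for the mean of 2 arrays. Xcl1 and Ccl12 are low in Aire-/- mTEChi, Ccl17 and Ccl3 are higher in mTEChi than in mTEClo of every genotype, and Ccl11 and Cxcl14 are higher in mTEClo.

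Several ligands ranged over the 12 arrays by far less than the 4.44 of Xcl1. Cxcl10 read between 9.32 and 9.97 and Cx3cl1 between 5.87 and 6.49. Ccl28, a mucosal ligand of Ccr10, read between 5.66 and 6.81. Ccl7, a Ccr2 ligand, read between 8.07 and 9.36. Their group means spanned 0.33, 0.59, 0.71 and 1.18, beside 3.94 for Xcl1. Ccl1, a Ccr8 ligand, and Ccl27a, a skin ligand of Ccr10, lay about the mark for dim signal, at 4.81 to 6.09 and 4.12 to 6.09. The Cxcr3 ligand Cxcl9 read between 10.06 and 11.85, with array 1 above array 2 in each of the 4 mTEChi groups.

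The high and low MHC class II fractions were compared next. In the wild types of both lines averaged, 9 of 34 ligands were higher in mTEChi and 1 was lower, beside 1.93% and 0.632% of all genes. At an unadjusted p under 0.05 stood 19 (12.8% of all genes). The median was 0.63, beside -0.10 over all genes. Without overlap 14 ligands were higher in mTEChi (11.4% of all genes) and 5 lower (17.7%). By class, 7 of 19 CC ligands rose and 1 fell, whereas of the 13 CXC ligands only Cxcl1 passed. Beside these counts, the summed thymocyte markers stood at 9.15 to 10.42 in wild-type mTEChi, against 8.82 to 8.95 in wild-type mTEClo, with 0 of 11 passed. The summed dendritic cell, macrophage and B cell markers stood at 10.39 to 11.03 in wild-type mTEChi, against 10.04 to 10.13 in wild-type mTEClo, with 0 of 14 passed. The summed level of neither list overlapped between the fractions. The median of the second list did overlap, at 5.19 to 5.46 in wild-type mTEChi and 5.18 to 5.26 in wild-type mTEClo. On that list Lyz2 read 9.15 to 10.08 in wild-type mTEChi, against 8.55 and 8.66 in wild-type mTEClo. Ptprc went the other way, at 4.89 to 5.25 against 5.81 and 6.07. The part of such cells in these ligand differences was not tested.

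Among the guidance ligands 4 of 9 measured were higher in wild-type mTEChi (1.93% of all genes): Xcl1, Ccl17, Ccl25 and Ccl5. Xcl1 read 10.10 and 9.55 in Aire+/+ and 10.08 and 8.99 in Brg1+/+ mTEChi, against 6.80 and 7.73 in the mTEClo arrays of those lines (difference 2.42, SE 0.383, adjusted p = 0.0209). Ccl17, probe set 17504138, read 10.10, 9.71, 10.47 and 9.47 in wild-type mTEChi, against 7.74 and 7.60 in wild-type mTEClo (difference 2.27, SE 0.329, adjusted p = 0.0150). Ccl25, probe set 17498830, read 8.46, 8.03, 8.71 and 8.13 in wild-type mTEChi, against 6.61 and 6.83 in wild-type mTEClo (difference 1.61, adjusted p = 0.0311). None of these 3 overlapped between fractions. Ccl5, probe set 17266946, read 12.76, 13.08, 13.01 and 13.13 in wild-type mTEChi, against 11.34 and 11.66 in wild-type mTEClo (difference 1.495, adjusted p = 0.0273). Ccl22, the other Ccr4 ligand, read 5.72, 6.73, 6.11 and 7.79 in wild-type mTEChi, against 4.47 and 5.02 in wild-type mTEClo. Both wild-type mTEClo readings lay under the mark for dim signal, its spread between mTEChi arrays was wider, and the difference of 1.84 did not pass (adjusted p = 0.132). Ccl20 differed by 1.01 and did not pass.

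Cxcl12 and Cx3cl1, also on the guidance list, went the other way without passing. Cxcl12, the Cxcr4 ligand of early thymocyte progenitors, read between 5.43 and 5.77 in wild-type mTEChi, against 6.64 and 6.42 in wild-type mTEClo (difference -0.97, adjusted p = 0.0916). Cx3cl1, a membrane-tethered ligand, differed by -0.47. Cxcl16 overlapped between the fractions (difference 0.06).

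Of the 11 monocyte and eosinophil attractants, 4 rose in wild-type mTEChi and 1 fell, beside 1.93% and 0.632% of all genes. Ccl12 read 7.84, 8.25, 8.42 and 7.53 in wild-type mTEChi, against 4.71 and 5.81 in wild-type mTEClo (difference 2.75, SE 0.362, adjusted p = 0.0117). Ccl3, probe set 17266967, read 8.93, 9.38, 8.19 and 8.72 in wild-type mTEChi, against 6.77 and 6.15 in wild-type mTEClo (difference 2.35, SE 0.254, adjusted p = 0.00637). Ccl2, probe set 17254041, read 10.66, 10.70, 10.41 and 10.22 in wild-type mTEChi, against 8.67 and 8.36 in wild-type mTEClo (difference 1.98, SE 0.270, adjusted p = 0.0126). Ccl3 and Ccl2 were 5.08-fold and 3.95-fold higher in mTEChi, and no fold is given for Ccl12 because 1 of its 2 wild-type mTEClo readings lay under the mark for dim signal. Ccl24, probe set 17453611, read 7.63, 7.58, 7.46 and 7.18 in wild-type mTEChi, against 5.91 and 6.15 in wild-type mTEClo (difference 1.43, adjusted p = 0.0429). Of the rest of this list, Ccl7 and Ccl9 differed by 0.84 and 1.03 without passing.

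Ccl11, probe set 17254053, encodes eotaxin, which attracts eosinophils through Ccr3, and was the 1 ligand that fell. It read 7.61, 7.68, 7.65 and 7.91 in wild-type mTEChi, against 10.50 and 9.58 in wild-type mTEClo. The difference was -2.33 (SE 0.213, adjusted p = 0.00339), a 5.02-fold lower level in mTEChi. It lies between Ccl7 and Ccl12 in the cluster, whose other 5 members had differences between 0.03 for Ccl1 and 2.75 for Ccl12. Beside it, the summed list of fibroblast, pericyte and endothelial markers stood at 10.47 to 11.11 in the 8 mTEChi arrays and at 11.18 to 11.72 in the 4 mTEClo arrays, with 0 of 13 passed in the wild types. The summed tuft-like list also stood lower in mTEChi, at 9.46 to 10.03, against 11.64 to 12.08 in mTEClo. The part of these cells in the Ccl11 difference was not tested.

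Of the 5 CXC ligands of neutrophils 1, Cxcl1, passed as higher in mTEChi, beside 1.93% of all genes. Cxcl1, probe set 17438987, read 7.88, 7.92, 8.13 and 7.79 in wild-type mTEChi, against 6.30 and 7.0 in wild-type mTEClo (difference 1.28, SE 0.214, adjusted p = 0.0261). Cxcl3 read 10.65, 11.22, 11.25 and 11.18 in wild-type mTEChi, against 9.03 and 9.97 in wild-type mTEClo (difference 1.58, adjusted p = 0.0542), just outside the threshold. Cxcl2 differed by 0.83 and overlapped. The other gene pair of that cluster, Cxcl5 and Cxcl15, differed by -0.19 and 0.26.

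Cxcl13, the Cxcr5 ligand of B cell areas, varied widely between arrays of 1 group. It read 10.50, 9.02, 10.47 and 8.70 in wild-type mTEChi, against 7.26 and 7.19 in wild-type mTEClo (difference 2.45, SE 0.718, adjusted p = 0.175). In each mTEChi group array 1 stood above array 2: by 1.48 in Aire+/+, 1.77 in Brg1+/+, 1.69 in Aire-/- and 1.17 in Brg1-/-. All mTEClo arrays carry the number 1, and within arrays numbered 1 the steps were 3.24 in Aire+/+ and 3.28 in Brg1+/+. Over the 15 alternative settings the wild-type difference ran from 2.005 to 3.21. It passed in 1, the fit with the array number as a block (adjusted p = 0.00057). Barrier ligands Cxcl14, made by many epithelia, and Cxcl17, a mucosal chemokine, were lower in mTEChi without passing. Cxcl14 read 8.20, 7.47, 7.71 and 7.03 in wild-type mTEChi, against 8.90 and 8.85 in wild-type mTEClo (difference -1.27, adjusted p = 0.103).

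The calls rested in part on single arrays. With 1 array left out in turn, Ccl11, Ccl12, Ccl17, Ccl2 and Ccl3 passed in each of the 8 fits and Xcl1 in 7, being lost without Aire+/+ array 1 (adjusted p = 0.0609). Ccl25 passed in 3, Ccl24 and Ccl5 in 2 and Cxcl1 in 1. The count of called ligands was 5 without Aire+/+ array 1, 6 without Aire+/+ array 2 and between 7 and 9 without another array.

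**Figure D4:**
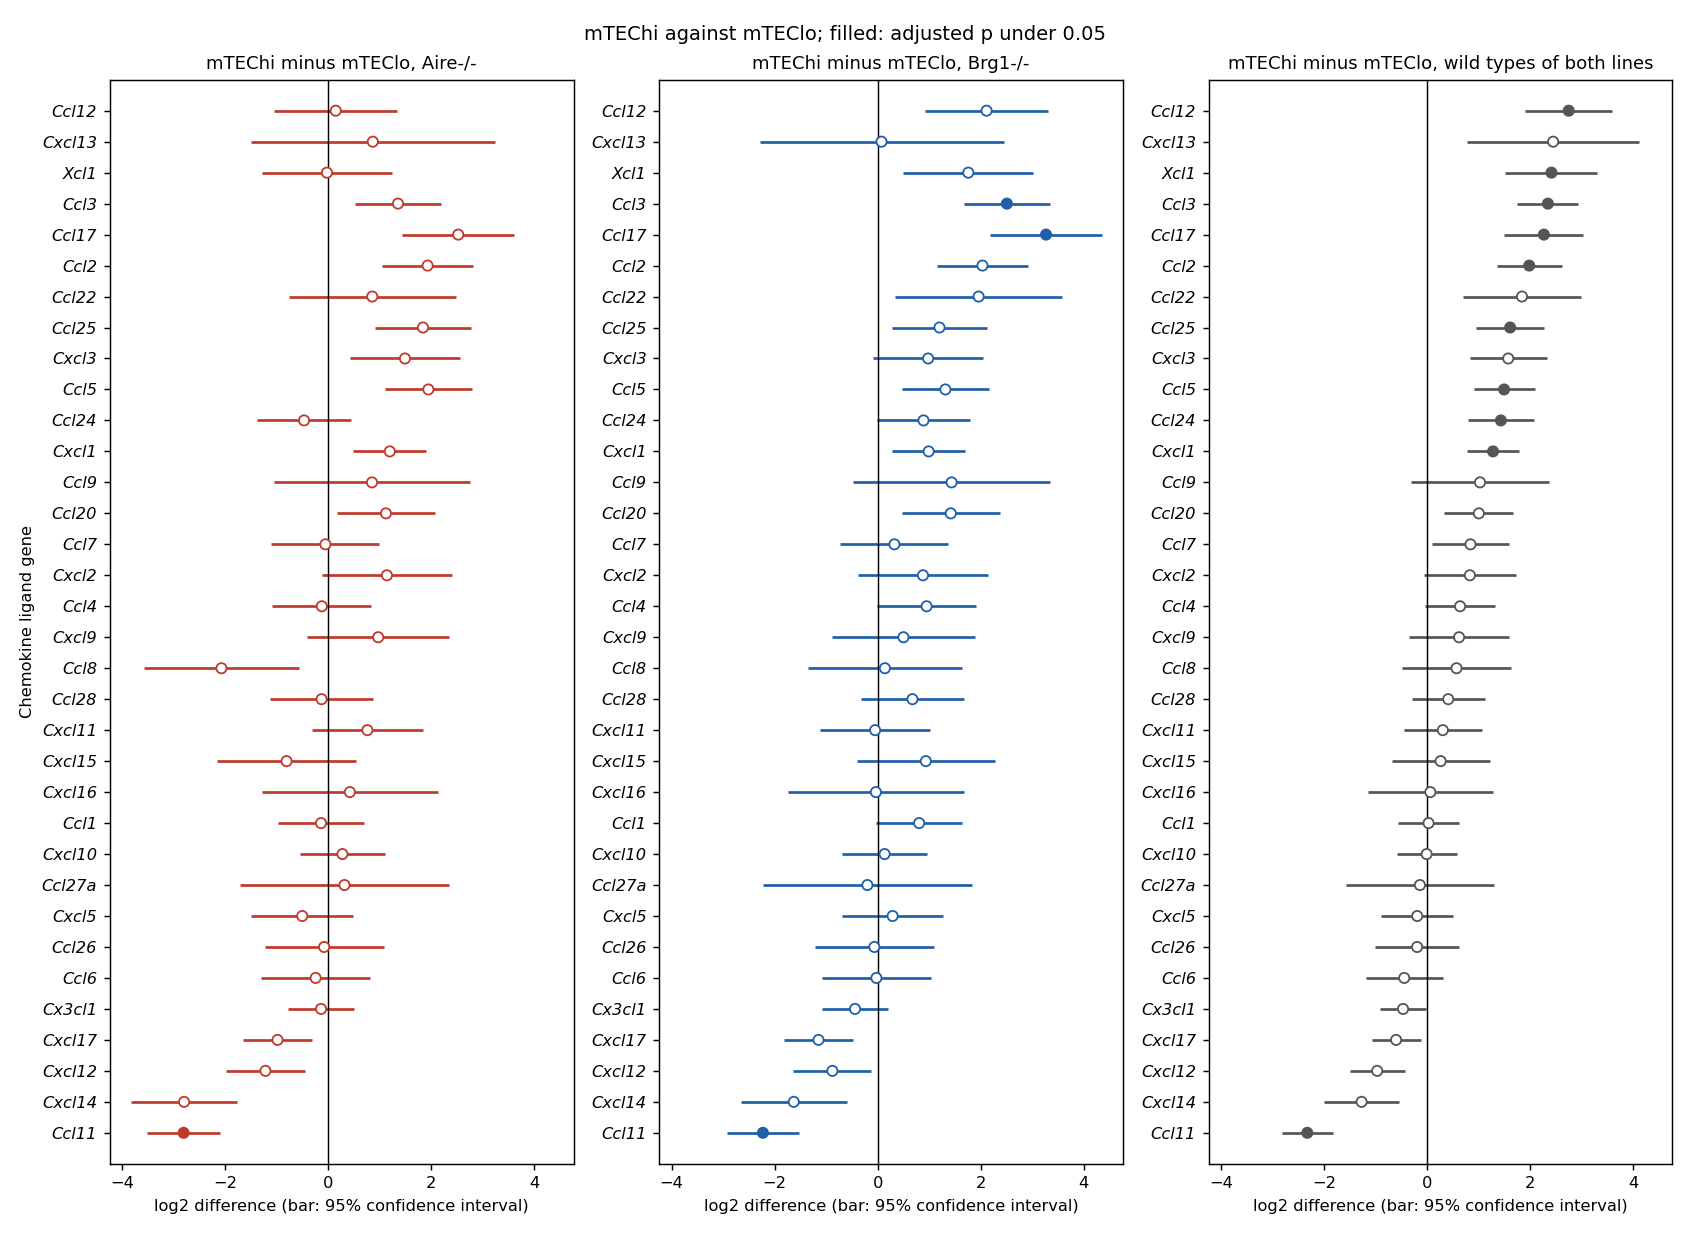
Log2 difference of each ligand between mTEChi and mTEClo with its 95% confidence interval, in Aire-/- cells, in Brg1-/- cells and in the wild types of both lines averaged, all in the order of the wild types. Filled points passed: 1 in Aire-/-, 3 in Brg1-/- and 10 in the wild types. The wild types have 4 mTEChi and 2 mTEClo arrays and each knockout 2 and 1, so these counts differ in precision.

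In Aire-/- cells the fractions differed in 1 called ligand, and in 7 with the array number as a block. Calls over all genes also rose with the block, from 104 to 505. Each knockout was compared on 2 mTEChi arrays and 1 mTEClo array, against 4 and 2 for the wild types. So a lower count of calls does not by itself show smaller differences. The median difference of the ligands was 0.21 in Aire-/- cells, 0.74 in Brg1-/- cells and 0.63 in the wild types. Ccl11 was lower in Aire-/- mTEChi at 7.66 and 8.0, against 10.64 in Aire-/- mTEClo (difference -2.81, SE 0.302, adjusted p = 0.0229), beside 0.0858% of all genes called lower. Called higher were 0 ligands, beside 0.384% of all genes. At an unadjusted p under 0.05 stood 13 (6.86% of all genes). The Ccl11 call was lost without any 1 of 6 arrays, those of Aire-/-, Aire+/+ and Brg1-/- mTEChi (highest adjusted p = 0.133). Ccl17 (2.53, adjusted p = 0.0909) and Ccl5 (1.95, adjusted p = 0.0910) were higher without passing. Cxcl14 read 6.80 and 7.14 in Aire-/- mTEChi, against 9.77 in Aire-/- mTEClo (difference -2.80, adjusted p = 0.0586).

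Xcl1, Ccl12 and Ccl24, which were called higher in wild-type mTEChi, read in Aire-/- cells 6.11 and 5.66, 6.07 and 5.14, and 6.26 and 6.46 in mTEChi, against 5.91, 5.46 and 6.83 in mTEClo. Their differences were -0.03, 0.15 and -0.47. The other ligands called higher in wild-type mTEChi also stood higher in Aire-/- mTEChi than in Aire-/- mTEClo, without passing. Their differences were 2.525 for Ccl17, 1.945 for Ccl5, 1.93 for Ccl2, 1.84 for Ccl25, 1.355 for Ccl3 and 1.195 for Cxcl1. The step between fractions in Aire-/- minus the step in Aire+/+ was -3.05 for Xcl1 (adjusted p = 0.82), -3.19 for Ccl12 (adjusted p = 0.623) and -2.17 for Ccl24 (adjusted p = 0.822). Over all genes 0 passed this test, and 5 of 34 ligands stood at an unadjusted p under 0.05, beside 2.47% of all genes. So the steps were not shown to differ between the genotypes. These contrasts share the mTEChi arrays of the Aire line with the knockout comparison.

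In Brg1-/- cells 2 ligands were called higher in mTEChi and 1 lower, beside 0.542% and 0.0406% of all genes. With the array number as a block 7 were called, and calls over all genes rose from 129 to 615. Ccl17 read 9.47 and 9.59 in Brg1-/- mTEChi, against 6.26 in Brg1-/- mTEClo (difference 3.27, SE 0.465, adjusted p = 0.0411). Ccl3 read 8.25 and 8.01 in Brg1-/- mTEChi, against 5.62 in Brg1-/- mTEClo (difference 2.51, SE 0.360, adjusted p = 0.0411). Ccl11 read 7.41 and 7.53 in Brg1-/- mTEChi, against 9.70 in Brg1-/- mTEClo (difference -2.23, SE 0.302, adjusted p = 0.0379). Each of the 3 had the direction seen in wild types. Without 1 array the count was between 0 and 2: 2 (Ccl17 and Ccl3) without Brg1+/+ array 1 or array 2, and 0 without any of the other 6. Of the difference between the Brg1-/- and Brg1+/+ steps, 0 ligands passed and 1, Ccl1 (1.36), stood at an unadjusted p under 0.05, beside 1.34% of all genes.

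All mTEClo arrays carry the number 1, so steps were also taken within arrays numbered 1, as values with no test. In 4 of 4 genotypes 20 ligands were higher in mTEChi (13.3% of all genes) and 5 were lower (18.8%). The 5 were Ccl11, Cx3cl1, Cxcl12, Cxcl14 and Cxcl17. Ccl17 had steps of 2.79 in Aire-/-, 2.36 in Aire+/+, 3.21 in Brg1-/- and 2.87 in Brg1+/+. Ccl11 had steps of -2.98 in Aire-/-, -2.89 in Aire+/+, -2.29 in Brg1-/- and -1.93 in Brg1+/+. Ccl2 and Ccl5 were as even, at 1.51 to 2.05 and 1.26 to 1.61. Xcl1 was not, with 0.20 in Aire-/-, 3.30 in Aire+/+, 2.12 in Brg1-/- and 2.35 in Brg1+/+. Ccl8 had steps of -1.61 in Aire-/-, 1.29 in Aire+/+, 0.34 in Brg1-/- and 0.90 in Brg1+/+.

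**Figure D5:**
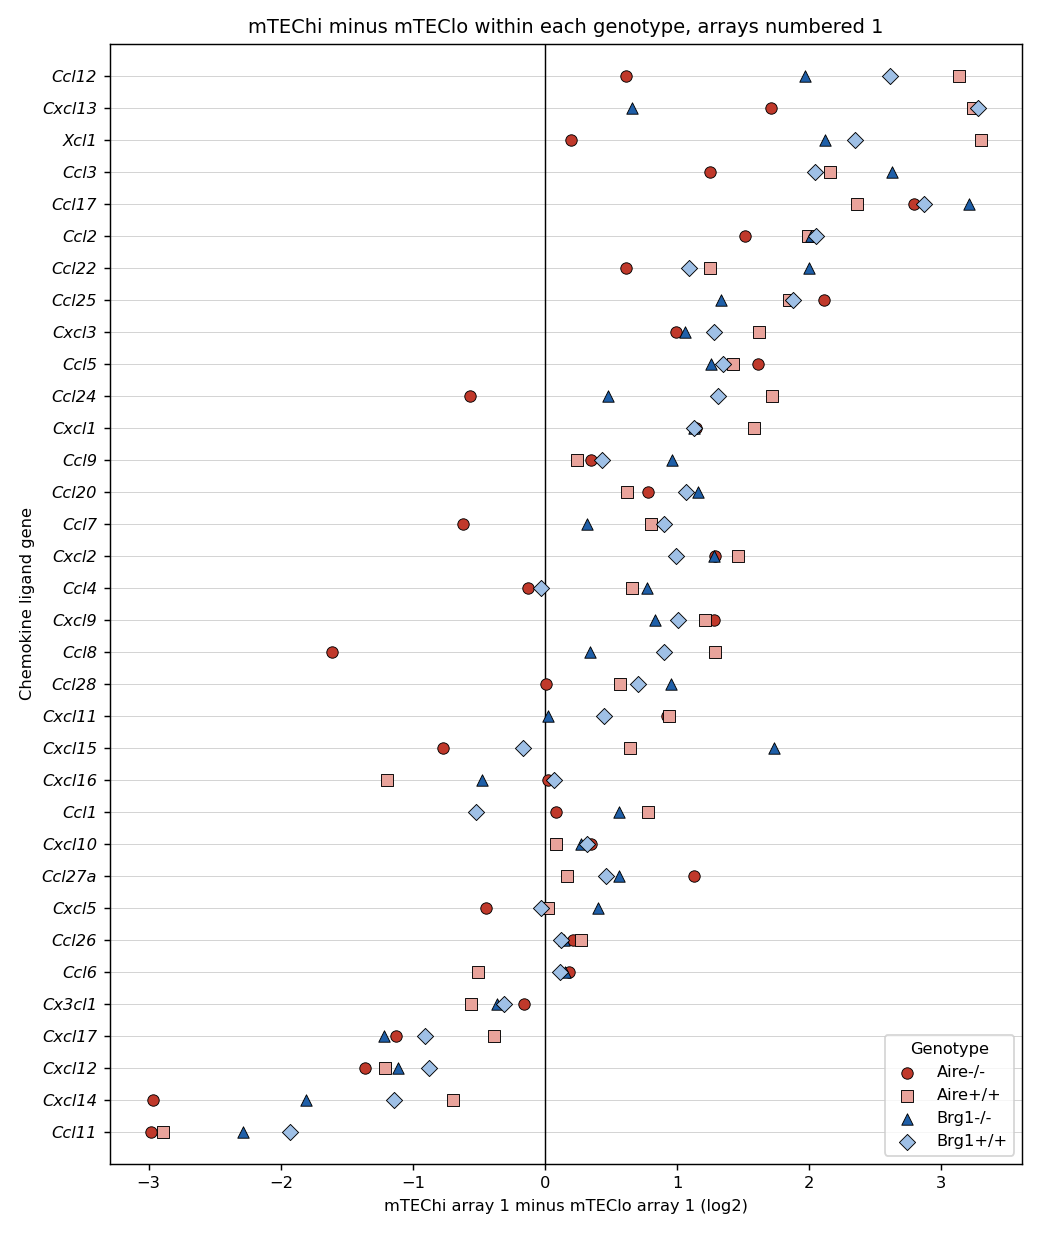
Difference in log2 intensity between mTEChi array 1 and mTEClo array 1 within each genotype, for the 34 ligands in the order of the wild-type fit. Points of Ccl17, Ccl2, Ccl5 and Ccl11 lie close together, while the Aire-/- point of Xcl1 lies at 0.20, apart from the other 3 at 2.12 to 3.30.

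In mTEClo each knockout was set against its wild type with 1 array a side. For Aire 0 of 34 ligands passed (0.00% of all genes), and Ccl6 (-2.07) and Ccl20 (-1.39) stood at an unadjusted p under 0.05, as 1.35% of all genes did. Ccl6 read 5.40 in Aire-/- mTEClo, against 7.47 in Aire+/+ mTEClo. Ccl20 read 8.28 in Aire-/- mTEClo, against 9.67 in Aire+/+ mTEClo. Both were also among the lower ligands in Aire-/- mTEChi, and neither difference passed there. Both stand on the microfold-like list, whose other 5 markers had a median of -0.75 in this comparison, 5 of 5 below 0 and 0 passed, and the part of such cells was not tested. Xcl1 read 5.91 in Aire-/- mTEClo, against 6.80 in Aire+/+ mTEClo. For Brg1 0 ligands passed (0.00% of all genes), and Ccl17 (-1.34) and Cxcl13 (2.91) stood at an unadjusted p under 0.05, as 1.72% of all genes did. Cxcl13 read 10.10 in Brg1-/- mTEClo, against 7.19 in Brg1+/+ mTEClo, 7.82 in Aire-/- mTEClo and 7.26 in Aire+/+ mTEClo. This 1 array stood apart from the other 3, and it has no replicate check.

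Few receptors and regulators of the ligands passed. Of 19 chemokine receptor genes measured and 4 atypical receptors, which scavenge ligands, 0 passed in any of the 8 comparisons. The median of the chemokine receptor list lay between 5.08 and 5.69 over the arrays, about the mark for dim signal (5.08 to 5.63). Missing calls therefore say little about these receptors. Ccr4, the receptor of Ccl17 and Ccl22, had a difference of 1.57 in wild-type mTEChi against mTEClo (adjusted p = 0.0742). Its wild-type mTEClo readings of 4.30 and 4.25 lay under the mark, as did the 5.14 of Brg1+/+ mTEChi array 1. Of 14 NF-kB and TNF receptor genes only Cd40, the receptor through which T cells stimulate mTECs, passed, with 1.18 in wild-type mTEChi against mTEClo (adjusted p = 0.0382). Of 9 interferon response genes 0 passed, and their median was -0.48 in that comparison, with a summed level of at most 11.12 in wild-type mTEChi, against at least 11.79 in wild-type mTEClo, while the interferon-inducible ligands had a median of 0.31. The platelet ligand Pf4 was called higher in wild-type mTEChi (2.00, adjusted p = 0.0430).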

How the data were processed

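RNA of sorted mTECs was measured on 12 biotin-labelled Affymetrix 2.0 ST arrays, per the labels' protocols. The deposited table gives a linear intensity for each of 33732 probe sets. RMA is named in the submitters' processing notes, beside the Affymetrix Expression Console and the Transcriptome Analysis Console, without versions. Every deposited intensity is 2 raised to a number with 2 decimals. No further normalization was applied after taking log2. Of the probe sets 23491 had 1 gene symbol in the platform annotation, and the brightest of each gene was kept. No detection p was used, so low levels and folds against them are compressed by background.

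Groups followed the labels. R 4.3.3 and limma 3.58.1 (lmFit, eBayes) fitted 8 group means over all 12 arrays with 4 residual and 3.46 prior degrees of freedom. Adjusted p is two-sided, by Benjamini-Hochberg over 22154 genes. The steps were tested on simulated data. Alternatives were the array number as a block, median centring, quantile normalization, a trend and robust prior, and a filter on dim genes. Further ones were all probe sets, only the groups compared, and each mTEChi array left out. For comparisons within mTEChi, only the groups compared meant every mTEChi group, and that fit gave the same calls as the main fit. The ligands and gene lists were chosen with earlier results of these data known. Every ligand could be named. Values on every array are given for ligands that passed, guidance ligands and ligands with wide group ranges, and some further ligands were chosen after their values were seen. Arrays carry no depth, and their number limits the precision.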

Additional observations from a re-analysis of the deposited data

How the results depend on the processing

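The 34 ligands in 8 comparisons gave 272 differences, of which 70 stood at an unadjusted p under 0.05. Over 15 alternative settings 0 of these 70 changed sign, and 75 of the other 202, each at most 0.71 in size, turned in at least 1 setting. Several settings cannot move a difference: another prior, a gene filter, all probe sets, only the groups compared, or leaving out an array outside the comparison. The 70 were also chosen by p in these same data, so their steady signs are no separate support. Of the 70, those called gave 156 repeats that passed and 69 that did not. Those not called gave 790 repeats that stayed so and 28 that passed.

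The array number was used as a block, which is no pairing by the labels. Differences between array 1 and array 2 correlated between the 4 mTEChi groups with r of 0.552 to 0.657 over all genes. Under the block the count of called ligands was 7 for Aire in mTEChi (1 without it, with Ccl12, Ccl3, Ccl6, Ccl8, Ccl9 and Cxcl5 beside Xcl1), 15 for the fractions in wild types (10), 7 for the fractions in Aire-/- (1), 7 in Brg1-/- (3) and 1 for the Brg1 minus Aire effect (0, Xcl1). It was 0 for Brg1 in mTEChi and for both knockouts in mTEClo, as in every setting. Calls over all genes also rose under the block in the comparisons where the ligand count rose. For Aire in mTEChi they were 531 (176 without it), and for the fractions in wild types 1534 (567). They were 505 for the fractions in Aire-/- (104), 615 in Brg1-/- (129) and 201 for the Brg1 minus Aire effect (30). So the rise was not particular to the ligands.

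For Aire in mTEChi, median centring and the filter on dim genes gave 2 (Ccl12 and Xcl1). For the fractions in wild types, only the groups compared gave 4. In Aire-/- quantile normalization and the dim filter gave 2 and only the groups compared 0. In Brg1-/- median centring and only the groups compared gave 1, and the trend and robust prior gave 0. Median centring also gave 1 for the Brg1 minus Aire effect. With 1 array left out the counts ran from 0 to 2 for Aire in mTEChi, 5 to 9 for the fractions in wild types, 0 to 1 in Aire-/- and 0 to 2 in Brg1-/-. Fewer residual degrees of freedom remain in fits with fewer arrays, and the cause of the other changes was not tested. Only the groups compared could not be run for the mTEClo knockouts, which leave no residual degrees of freedom. Low signal over background limits Ccl26, Ccl27a, Ccl1 and Cxcl15, Ccl22 in mTEClo (above the mark on 0 of 4 arrays), Ccl6 in Aire-/- cells, Ccl12 in mTEClo (2 of 4) and in Aire-/- mTEChi (1 of 2), and on 1 or 2 mTEChi arrays Cxcl5 and Cxcl12.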
